A study of Mus musculus with 36 samples.

Results

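The effect of adding the Axl inhibitor TP-0903 to gemcitabine was measured in mouse pancreatic tumours. The tumours were chosen by their treatment label, which gave 5 tumours labelled TP-0903+Gemcitabine and 4 labelled Gemcitabine, 9 of the 36 tumours in the series. Each TP-0903+Gemcitabine mouse received TP-0903 by mouth at 25 mg/kg each day and gemcitabine by injection at 25 mg/kg, 3 times a week. Each Gemcitabine mouse received the gemcitabine injections alone, so both arms carried the chemotherapy and differed in the inhibitor. All mice were wild-type C57BL/6 animals with KPfC BMF-A3 cells placed in the pancreas, treated from day 10 and killed on day 35. KPfC BMF-A3 is a tumour line from a mouse model of pancreatic cancer, so every graft came from the same line in hosts with an intact immune system. The labels give neither age nor sex, and say nothing on whether mice shared a cage, so p-values measure spread between tumours. The edgeR p-values and SEs of the main fit rest on the spread within all 8 arms of 36 tumours, not on these 9 alone.

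Axl belongs to the TAM family of receptor kinases, with Tyro3 and Mertk, and is switched on by the ligand Gas6. In tumour cells it is linked to survival, invasion and resistance to chemotherapy, and in macrophages and dendritic cells TAM receptors clear dying cells and damp inflammatory signalling. Gemcitabine is a nucleoside analogue that stops DNA synthesis and is a standard drug for pancreatic cancer. RNA was measured with the mouse PanCancer Immune Profiling set of nCounter probes, each of which carries a colour barcode and is counted singly, with no copying of the RNA. The set reads 750 endogenous genes and 20 housekeeping genes, beside 6 spiked positive controls and 8 probes with no target. Values below are scaled counts, which are raw counts divided by the relative geometric mean of the housekeeping genes in the lane, listed in replicate order.

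Total gene counts ran from 252251 to 385735 in the TP-0903+Gemcitabine tumours and from 253283 to 552876 in the Gemcitabine tumours. All 5 TP-0903+Gemcitabine lanes and Gemcitabine replicates 3 and 4 were on one nCounter cartridge, and Gemcitabine replicates 1 and 2 were on another. The most alike tumours of an arm, TP-0903+Gemcitabine replicates 4 and 5, had a chi-square of 11.3 per gene between their counts. Neither arm thus held the same library 2 times, and pairs from different arms were not compared. Values within the shared cartridge, 5 tumours against 2, are given beside the leading results. Both Gemcitabine lanes there have a suffix in their identifiers that no source explains, and 0 of the 5 TP-0903+Gemcitabine lanes do. Suffix and arm thus cannot be told apart in that comparison. The ratio of housekeeping genes to positive controls, which falls when less intact RNA enters a lane, was 0.341, 0.187, 0.141, 0.204 and 0.297 in TP-0903+Gemcitabine tumours, against 0.345, 0.256, 0.449 and 0.416 in Gemcitabine tumours. Its mean was lower in the TP-0903+Gemcitabine arm, with some overlap (two-sided exact permutation p = 0.0635, 0.198 after Benjamini-Hochberg adjustment over 10 lane measures). The ratio also falls when positive-control counts rise. Their geometric mean averaged 1446 in TP-0903+Gemcitabine and 1068 in Gemcitabine lanes, a log2 shift of 0.44 (exact permutation p = 0.0317, adjusted 0.198). The housekeeping geometric mean shifted by -0.25 (exact permutation p = 0.365, adjusted 0.456). After scaling, the mean of the negative-control probes was 12.7, 16.0, 22.9, 15.2 and 12.1 in TP-0903+Gemcitabine lanes, against 9.96, 16.2, 7.68 and 9.06 in Gemcitabine lanes. This is a log2 shift of 0.58 in probes that bind no RNA (exact permutation p = 0.111, adjusted 0.222).

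TP-0903+Gemcitabine replicate 3 stood apart from its arm. Its 18 liver markers summed to 6581 scaled counts, against 1332 to 1930 in the other 4 tumours of its arm and 1264 to 2159 in the Gemcitabine tumours. Gemcitabine replicate 1 stood apart with high granulocyte and B cell genes, among them Mpo at 945 and Ms4a1 at 243 scaled counts. Both tumours were kept, and results that rest on them are given without them as well. The labelled tissue showed in every tumour through the epithelial genes Epcam, at 1053 to 3707 scaled counts in TP-0903+Gemcitabine and 1932 to 3470 in Gemcitabine, and Cdh1, at 1106 to 2821 in TP-0903+Gemcitabine and 1891 to 2797 in Gemcitabine. In whole tumour RNA, fewer cells of a type and less RNA per cell cannot be told apart.

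Across the panel, adding TP-0903 to gemcitabine gave no gene past the threshold. Of 683 genes tested, 0 (0%) had an adjusted p under 0.05 by edgeR's quasi-likelihood test, and 67 genes near background were not tested. At an unadjusted p under 0.05 there were 53 genes by edgeR, 49 by limma and 49 by DESeq2. After adjustment limma called 0 genes, and DESeq2 called 1, Pla2g1b. An edgeR fit to only these 2 arms called 0 genes and gave 59 at an unadjusted p under 0.05. Single SEs moved in both directions. That of Arg1 was 0.43 in that fit against 0.79 in the main fit, and that of Aire 0.30 against 0.28. By edgeR, 48 of the 53 genes were higher in TP-0903+Gemcitabine (7.03% of tested genes) and 5 were lower (0.732%). The higher ones sat at low levels: 26 of the 48 averaged under 25 scaled counts over all tumours, 17 averaged 25 to 100, 5 averaged 100 to 1000, and 0 were above that. Of the 5 lower genes, 4 averaged 100 to 1000. The 53 genes became 25 without TP-0903+Gemcitabine replicate 3, 26 without Gemcitabine replicate 3, 32 without Gemcitabine replicate 4 and 87 without Vehicle replicate 3 and TP-0903 replicate 3, tumours of other arms with high lung markers (the Vehicle tumour) and high liver markers (the TP-0903 tumour).

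The median log2 fold, TP-0903+Gemcitabine over Gemcitabine, was 0.20 over all tested genes, with 472 of 683 folds above 0 (69.1%). It was 0.04 with TMM factors, 0.01 with DESeq2 and 0.09 without TP-0903+Gemcitabine replicate 2. By level it was 0.51 under 25 scaled counts (149 genes), 0.24 from 25 to 100 (232 genes), 0.04 from 100 to 1000 (257 genes) and 0.08 above (45 genes). Subtracting each lane's negative-control mean brought the median of all genes to 0.07 and that of genes under 25 scaled counts to 0.26, and 14 higher and 13 lower genes then had an unadjusted p under 0.05. Scaling to positive controls alone turned the median to -0.47, with 97 folds above 0, 1 gene higher and 123 lower at an unadjusted p under 0.05, and 0 called. Directions below are therefore relative to the housekeeping genes, and each list's median and count of folds above 0 are to be read against those of all genes. Lists of low-level genes are also to be read against genes of that level. Under 25 scaled counts, 137 of 149 folds lay above 0. Within the shared cartridge the median of all genes was 0.30, with 0 genes called and 71 higher and 5 lower at an unadjusted p under 0.05.

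**Figure D1:**
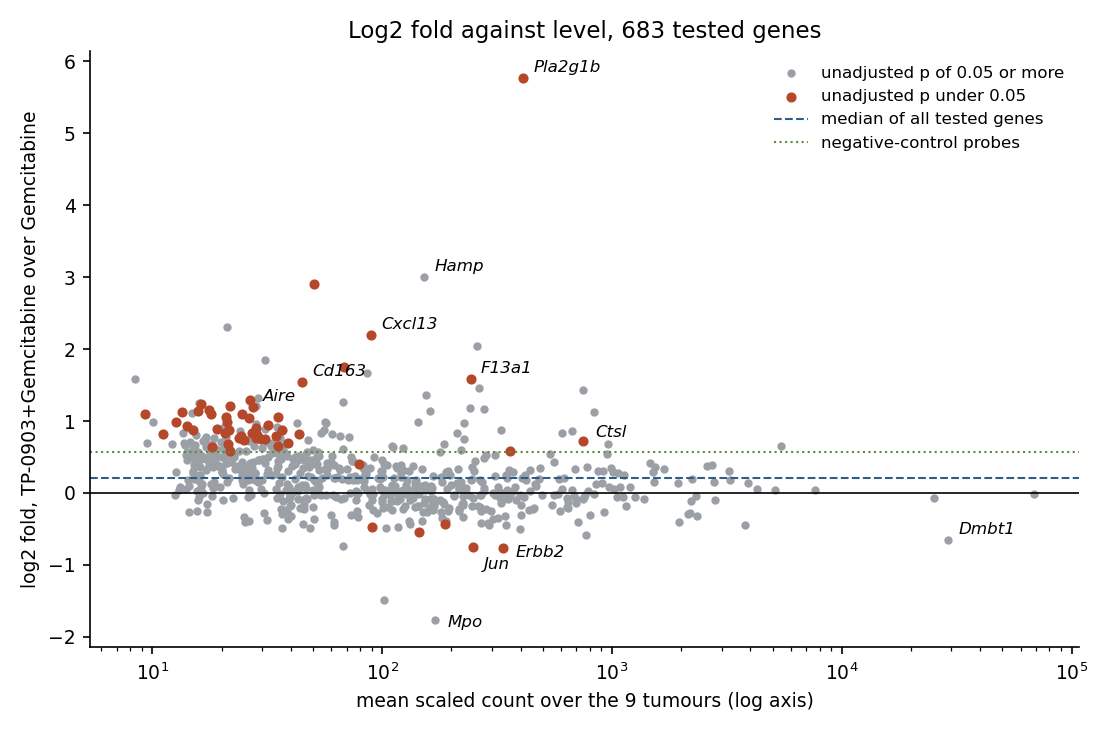
Log2 fold, TP-0903+Gemcitabine over Gemcitabine, against the mean scaled count over the 9 tumours on a log axis, 1 point for each of the 683 tested genes. Red points have an unadjusted p under 0.05, the dashed line is the median of all genes (0.20), and the dotted line is the shift of the negative-control probes (0.58). Most red points are low-level genes above the dashed line, and Pla2g1b stands alone at 5.77.

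The genes whose tumours did not overlap between arms were few. There were 11 with every TP-0903+Gemcitabine tumour above every Gemcitabine tumour (1.61% of tested genes) and 6 with every one below (0.878%). These tumours can be divided between the arms in 126 ways, so the smallest possible two-sided exact permutation p is 0.0159. Among 683 tested genes, some full separation by chance is thus likely in each direction. Neither count was tested against chance, so lack of overlap alone does not mark a gene as changed. The lower genes included Erbb2, Jun, Dmbt1, Creb1 and Tlr4, each above the lane's background threshold in every tumour of both arms. The 11 higher genes were Cdkn1a, Ccl3, Cfp, Tnfsf4, Itgae, Tnfrsf9, Cd200r1, Ltf, Aire, Gfi1 and F12. Of these, 4 averaged under 25 scaled counts over all tumours, 4 averaged 25 to 100 and 3 averaged 100 to 1000. F12, a liver marker, had 104 scaled counts in TP-0903+Gemcitabine replicate 3 and 27.1 in the next tumour of that arm.

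Jun, a subunit of the stress-responsive transcription factor AP-1, had 168, 230, 170, 180 and 207 scaled counts in TP-0903+Gemcitabine tumours, against 242, 341, 306 and 392 in Gemcitabine tumours. Every TP-0903+Gemcitabine tumour lay below the lowest Gemcitabine tumour. Its log2 fold was -0.75 ± 0.26 (SE), with an edgeR adjusted p of 0.490, and it was -0.87 within the shared cartridge and -0.71 without replicate 3 of the TP-0903+Gemcitabine arm. Over all alternatives it ran from -1.40 to -0.63, always below 0.

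Erbb2, a receptor kinase of the EGFR family, had 345, 230, 145, 263 and 301 scaled counts in TP-0903+Gemcitabine tumours and 439, 501, 401 and 410 in Gemcitabine tumours. The arms did not overlap, and replicate 3 was the lowest of the TP-0903+Gemcitabine tumours. The log2 fold was -0.77 ± 0.34 (edgeR adjusted p = 0.615), and -0.62 without that tumour. It was below 0 in every alternative, from -1.28 to -0.62.

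Dmbt1, a secreted scavenger glycoprotein of epithelia that is also made in normal pancreas, was among the most abundant transcripts. It had 27180, 18113, 23022, 26593 and 20496 scaled counts in TP-0903+Gemcitabine tumours, against 33573, 33643, 38642 and 39576 in Gemcitabine tumours. The arms did not overlap, and the log2 fold of -0.66 ± 0.91 had an edgeR adjusted p of 0.908. Over all 36 tumours the summed level of Dmbt1 and Pla2g1b ran from 35.6 to 81733 scaled counts. The transcription factor Creb1 averaged 163 ± 25.6 in TP-0903+Gemcitabine and 208 ± 6.75 in Gemcitabine (SD, n = 5 and 4). The lipopolysaccharide receptor Tlr4 averaged 179 ± 17.3 in TP-0903+Gemcitabine and 213 ± 5.70 in Gemcitabine. Their log2 folds were -0.35 ± 0.24 and -0.25 ± 0.33 by edgeR, with adjusted p-values of 0.773 and 0.901. Gtf3c1, a subunit of an RNA polymerase III factor, overlapped between arms, at 163 ± 47.7 in TP-0903+Gemcitabine and 220 ± 27.0 in Gemcitabine (log2 fold -0.43 ± 0.17, edgeR adjusted p = 0.564).

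**Figure D2:**
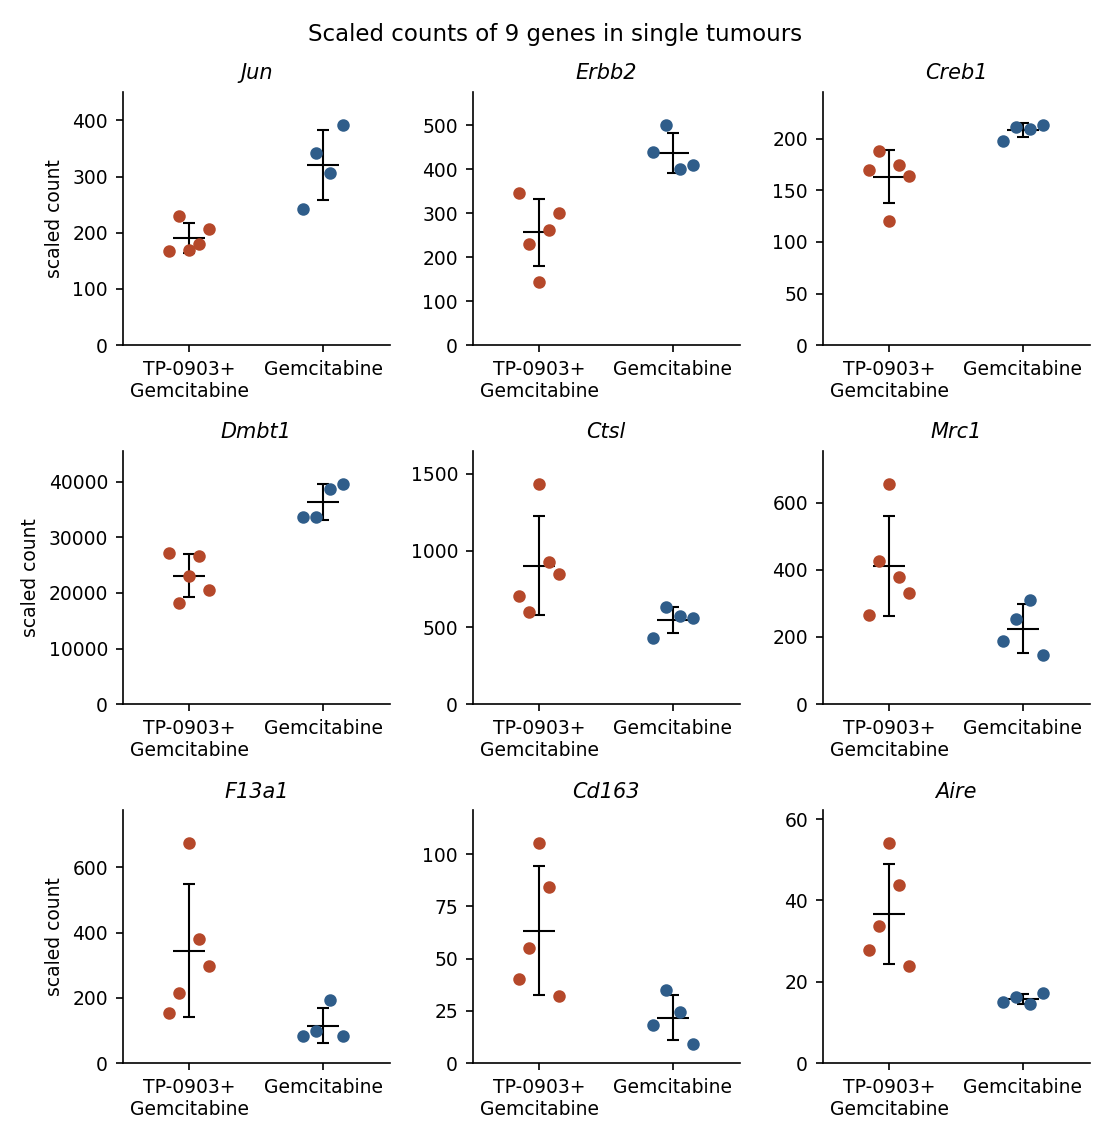
Scaled counts of 9 genes, with 1 point for each tumour, TP-0903+Gemcitabine on the left and Gemcitabine on the right of each panel, and bars for the mean ± SD (n = 5 and 4). Jun, Erbb2, Creb1 and Dmbt1 lie lower in every TP-0903+Gemcitabine tumour and Aire lies higher in every one, while Ctsl, Mrc1, F13a1 and Cd163 lie higher on average with overlapping arms.

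The largest fold was that of Pla2g1b, a phospholipase that acinar cells of the normal pancreas secrete into the gut. It had 29.5, 105, 2923, 508 and 62.2 scaled counts in TP-0903+Gemcitabine tumours, against 3.23, 8.75, 1.44 and 37.2 in Gemcitabine tumours. All 5 TP-0903+Gemcitabine tumours exceeded their lane's background threshold, and 1 of 4 Gemcitabine tumours did. The arms overlapped, because Gemcitabine replicate 4 lay above TP-0903+Gemcitabine replicate 1. The log2 fold was 5.77 ± 1.41 (edgeR adjusted p = 0.0949), 5.20 within the shared cartridge, and 3.73 without TP-0903+Gemcitabine replicate 3. Dmbt1, the other gene of the normal pancreas list on the panel, is also in the epithelial and tumour cell list, and lay lower in the TP-0903+Gemcitabine arm. It was abundant in all 9 tumours, including those with Pla2g1b at background. The part of normal pancreas tissue in these values was not tested.

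Aire, a transcription regulator best known from the thymus, had the smallest p-value. It had 27.8, 33.8, 54.1, 43.8 and 23.9 scaled counts in TP-0903+Gemcitabine tumours, against 15.1, 16.2, 14.4 and 17.3 in Gemcitabine tumours. All TP-0903+Gemcitabine values exceeded all Gemcitabine values, but 2 of the 4 Gemcitabine values did not exceed the lane's background threshold. The log2 fold was 1.20 ± 0.28 (edgeR adjusted p = 0.0949) and 1.18 within the shared cartridge. It passed the threshold when TP-0903+Gemcitabine replicate 1 or replicate 5 was left out (edgeR adjusted p = 0.0457 and 0.0458). The adjusted p by edgeR was 0.705 without TP-0903+Gemcitabine replicate 3, 0.413 without Gemcitabine replicate 1 and 0.511 with the cartridge as a block, and the log2 fold was 0.44 under positive-control scaling. Gfi1, a repressor needed in granulocyte and lymphocyte development, showed a like pattern at 36.4 ± 14.0 scaled counts in TP-0903+Gemcitabine and 14.7 ± 5.68 in Gemcitabine (log2 fold 1.29 ± 0.41, edgeR adjusted p = 0.464).

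Transcripts of the target of TP-0903 and of its relative Mertk overlapped between arms. Axl had 498, 926, 480, 637 and 740 scaled counts in TP-0903+Gemcitabine tumours and 542, 628, 590 and 517 in Gemcitabine tumours. The log2 fold was 0.21 ± 0.29 (95% confidence interval -0.38 to 0.79, edgeR adjusted p = 0.908), or -0.44 under positive-control scaling. Mertk, which macrophages use to clear dying cells, had 85.1, 129, 121, 70.9 and 49.4 in TP-0903+Gemcitabine and 88.3, 72.5, 62.9 and 63.8 in Gemcitabine, with a log2 fold of 0.34 ± 0.39 (edgeR adjusted p = 0.857), or -0.38 under positive-control scaling. These are the 2 members of the TAM list on the panel. TP-0903 acts on the kinase and not on its transcript, so Axl RNA does not check the labels. Nt5e, an ecto-enzyme that removes phosphate from nucleotides and the only gene of gemcitabine handling on the panel, averaged 283 ± 48.5 in TP-0903+Gemcitabine and 270 ± 58.4 in Gemcitabine (log2 fold 0.07 ± 0.32).

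Several macrophage genes lay higher on average in the TP-0903+Gemcitabine arm, none past the threshold. F13a1, a clotting factor subunit made by macrophages, had 155, 215, 674, 380 and 299 scaled counts in TP-0903+Gemcitabine tumours, against 84.0, 98.7, 194 and 83.6 in Gemcitabine tumours. Only TP-0903+Gemcitabine replicate 1 lay below the highest Gemcitabine tumour. Its log2 fold was 1.58 ± 0.62 (edgeR adjusted p = 0.537), 1.31 within the shared cartridge, 1.19 without TP-0903+Gemcitabine replicate 3, and above 0 in every alternative. The mannose receptor Mrc1 had 267, 427, 655, 379 and 331 in TP-0903+Gemcitabine and 189, 255, 310 and 146 in Gemcitabine (log2 fold 0.87 ± 0.47, edgeR adjusted p = 0.708). The haemoglobin scavenger receptor Cd163 had 40.1, 55.1, 105, 84.4 and 31.9 in TP-0903+Gemcitabine and 18.3, 35.0, 24.6 and 9.29 in Gemcitabine (log2 fold 1.55 ± 0.68, edgeR adjusted p = 0.615). Mrc1 and Cd163 are found on macrophages of the tissue-repair type, and for each 1 TP-0903+Gemcitabine tumour lay below the highest Gemcitabine tumour.

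The pan-macrophage gene Cd68 did not share this pattern. It averaged 236 ± 68.4 in TP-0903+Gemcitabine and 240 ± 53.7 in Gemcitabine, a log2 fold of -0.03 ± 0.29. The arginine-degrading enzyme Arg1, which hepatocytes also express, had 579, 622, 1950, 1197 and 1152 in TP-0903+Gemcitabine and 200, 747, 492 and 568 in Gemcitabine (log2 fold 1.13 ± 0.79, edgeR adjusted p = 0.774). The myeloid chemokine Ccl6 averaged 289 ± 135 in TP-0903+Gemcitabine and 148 ± 71.8 in Gemcitabine (log2 fold 0.97 ± 0.48, edgeR adjusted p = 0.636). Of 33 tested macrophage and monocyte genes, 23 had a fold above 0, a share near the 472 of 683 of all genes, 0 were called, and their median was 0.20, as for all genes. The lysosomal protease Ctsl, which trims antigens for MHC class II, had 702, 603, 1434, 927 and 847 in TP-0903+Gemcitabine and 432, 630, 572 and 559 in Gemcitabine. Its log2 fold was 0.72 ± 0.34 (edgeR adjusted p = 0.630), or -0.01 under positive-control scaling. Suppressive myeloid factors, 14 tested, had 13 folds above 0 and a median of 0.47. It was -0.18 under positive-control scaling and 0.22 without TP-0903+Gemcitabine replicate 3, against -0.47 and 0.16 for all genes. Among these factors were Nos2, the inducible nitric oxide synthase, at 0.90 ± 0.33, and the prostaglandin synthase Ptgs2 at 0.65 ± 0.42.

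Lymphocyte genes were low throughout, and their list medians lay above that of all genes. Genes averaging under 25 scaled counts had a median of 0.51, or 0.26 with background subtracted, and the negative-control probes shifted by 0.58. Of 16 tested T cell genes, 13 had a fold above 0 and 12 lay above the median of all genes, with 0 called and 3 higher at an unadjusted p under 0.05. Over all genes 69.1% had a fold above 0 and 7.03% were higher at that p. Their median was 0.60, against 0.20 for all genes; it was 0.47 with background subtracted, against 0.07, and -0.13 under positive-control scaling, against -0.47. Cd3d, a chain of the T cell receptor complex, had 51.6, 71.4, 73.1, 41.7 and 30.3 in TP-0903+Gemcitabine and 32.3, 43.7, 18.1 and 27.9 in Gemcitabine (log2 fold 0.82 ± 0.35, edgeR adjusted p = 0.596). It was above background in all 9 tumours, and the arms overlapped. Cd28, the costimulatory receptor of T cells, had 25.4, 37.6, 52.7, 32.3 and 21.5 in TP-0903+Gemcitabine and 7.54, 25.0, 21.0 and 21.1 in Gemcitabine (log2 fold 0.84 ± 0.29, edgeR adjusted p = 0.490), and 2 of 4 Gemcitabine values exceeded background.

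Under 25 scaled counts, 137 of 149 genes of the panel had a fold above 0, with a median of 0.51. Cytotoxic lymphocyte and NK cell genes had 17 of 18 folds above 0 with a median of 0.52, again with 0 called, where 472 of 683 of all genes lay above 0. Eomes, a transcription factor of such cells, averaged 27.3 ± 8.32 in TP-0903+Gemcitabine and 14.6 ± 3.90 in Gemcitabine (log2 fold 0.87 ± 0.32, edgeR adjusted p = 0.490), with 3 of 5 and 2 of 4 tumours above background. Cd8a (a CD8 T cell coreceptor), Foxp3 (the regulator of regulatory T cells) and Gzmb (a granule protease of killer cells) were at background in all 9 tumours and were not tested. Ifng, at background in all 9 tumours as well, passed the filter through other arms, and no difference was detectable at this depth. Lymph node or spleen markers, some of them B cell genes, summed to 1135, 1462, 1243, 329 and 313 in TP-0903+Gemcitabine tumours. In Gemcitabine tumours they summed to 1219, 366, 263 and 227. High sums thus occurred in 3 TP-0903+Gemcitabine tumours and 1 Gemcitabine tumour, and their part in the lymphocyte values was not tested. All 12 tested markers of this list had a fold above 0. Their median was 0.67, or 0.052 under positive-control scaling, against 0.20 and -0.47 for all genes. The list's median was 1.54 without Gemcitabine replicate 1 and 1.67 within the shared cartridge, against 0.22 and 0.30 for all genes.

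Among immune checkpoints 11 of 14 tested genes had a fold above 0, with a median of 0.34 and 0 called, where 69.1% of all genes lay above 0. Cd274, the PD1 ligand, had 55.6, 77.6, 77.5, 43.8 and 47.9 in TP-0903+Gemcitabine and 54.9, 77.5, 54.9 and 60.1 in Gemcitabine (log2 fold -0.03 ± 0.32, edgeR adjusted p = 0.979). The other PD1 ligand, Pdcd1lg2, had a log2 fold of 1.21 ± 0.40 (edgeR adjusted p = 0.490), with 3 of 5 and 1 of 4 tumours above background. Pdcd1 itself was at background in all 9 tumours. Tnfrsf9, the costimulatory receptor 4-1BB, had 28.6, 33.8, 43.9, 34.4 and 35.1 in TP-0903+Gemcitabine and 15.1, 27.5, 20.2 and 17.3 in Gemcitabine, without overlap (log2 fold 0.81 ± 0.30, edgeR adjusted p = 0.490). B cell and plasma cell genes had 21 of 22 folds above 0 and a median of 0.41. It was 0.87 without Gemcitabine replicate 1 and 0.97 within the shared cartridge, against 0.22 and 0.30 for all genes. Ms4a1, the CD20 gene, spanned 24.7 to 194 in TP-0903+Gemcitabine and 13 to 243 in Gemcitabine.

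The median folds of antigen presentation and interferon gamma induced genes lay close to that of all genes, and that of type I interferon response genes lay lower. MHC class I genes had 13 of 16 folds above 0 and a median of 0.24, and H2-K1, a classical class I heavy chain, had a log2 fold of 0.08 ± 0.61. MHC class II genes had 9 of 12 above 0 and a median of 0.14, and H2-Ab1, a class II chain, ranged from 121 to 1522 in TP-0903+Gemcitabine and from 443 to 768.7 in Gemcitabine. Type I interferon response genes had 13 of 28 above 0, 7 of 28 above the median of all genes, and a median of -0.01, and interferon gamma induced genes 11 of 16 and 0.21. Cxcl9, a chemokine that draws T cells, was above background in 1 of 5 TP-0903+Gemcitabine tumours and 2 of 4 Gemcitabine tumours. None of these lists held a called gene by edgeR.

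The remaining immune lists held 0 called genes each. Eosinophil and mast cell genes had 12 of 14 folds above 0 and a median of 0.64, dendritic cell genes 22 of 23 and 0.46, regulatory and helper T cell factors 8 of 12 and 0.40, and neutrophil chemokine genes 11 of 15 and 0.36. Without TP-0903+Gemcitabine replicate 3 the median of the neutrophil chemokine genes was 0.048, against 0.16 for all genes. Under positive-control scaling the medians of the 4 lists were -0.09, -0.23, -0.24 and -0.45, against -0.47 for all genes. Itgae, the integrin chain CD103 of resident T cells and a dendritic cell subset, had 27.8, 46.3, 23.4, 30.2 and 23.9 in TP-0903+Gemcitabine and 22.6, 17.5, 13 and 19.8 in Gemcitabine. The arms did not overlap, with 4 of 5 and 3 of 4 tumours above background, and the log2 fold was 0.73 ± 0.27 (edgeR adjusted p = 0.490). NF-kB and inflammatory cytokine genes had 27 of 34 folds above 0 and a median of 0.22, which was 0.087 without TP-0903+Gemcitabine replicate 3. Tnf, an inflammatory cytokine, had 33.6, 33.8, 70.2, 43.8 and 28.7 in TP-0903+Gemcitabine and 19.4, 38.7, 21.7 and 26.6 in Gemcitabine, and its log2 fold of 0.65 ± 0.29 (edgeR adjusted p = 0.615) was -0.06 under positive-control scaling.

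**Figure D3:**
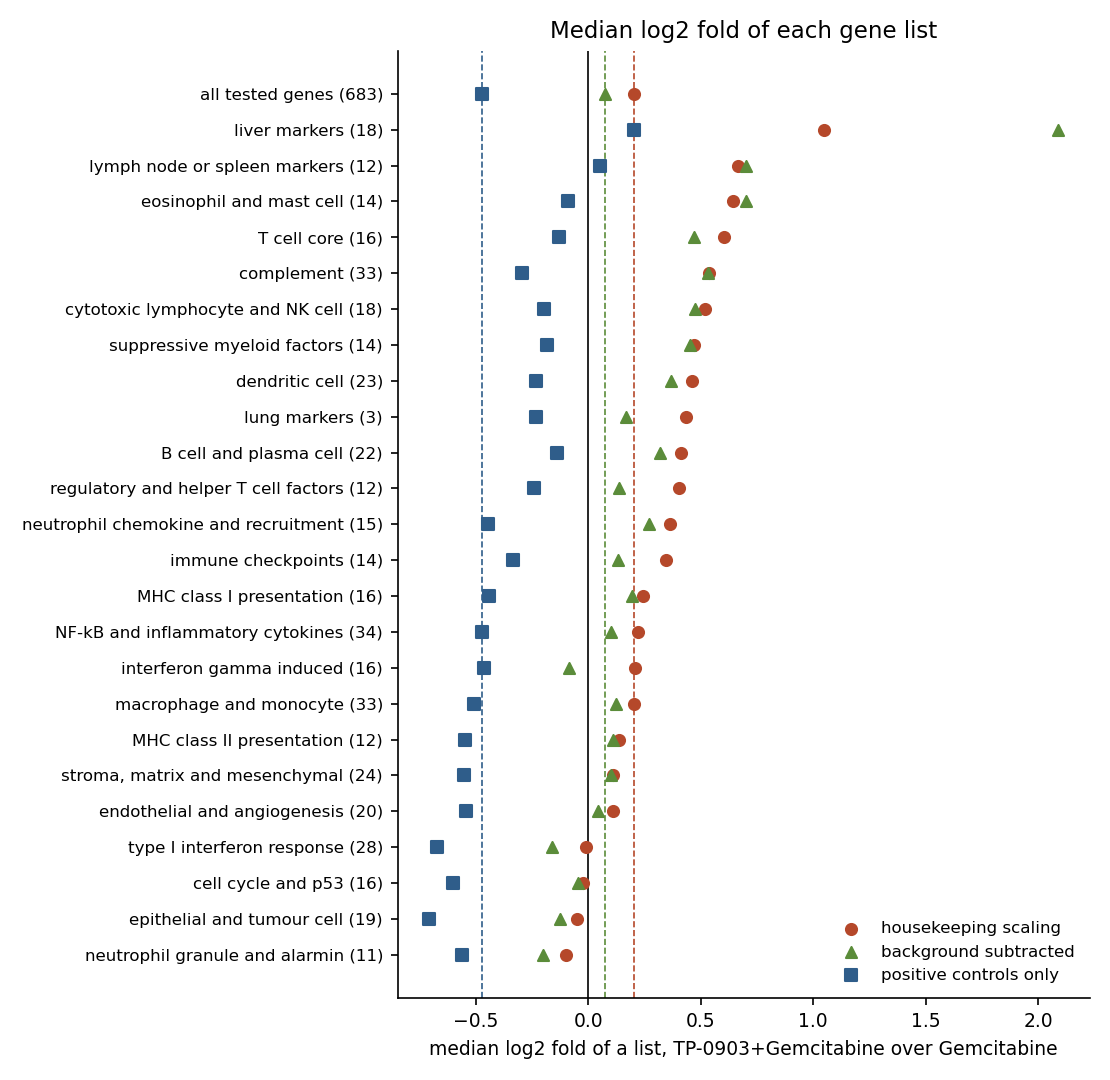
Median log2 fold of each gene list, TP-0903+Gemcitabine over Gemcitabine, with the number of tested genes in brackets. Circles give housekeeping scaling, triangles background subtraction and squares positive controls only, and dashed lines give the median of all genes in each (0.20, 0.07 and -0.47). Many lists lie right of the line in all 3, among them T cell, cytotoxic, B cell, dendritic cell, suppressive myeloid, eosinophil and mast cell, complement, lymph node and liver lists. Epithelial, type I interferon, neutrophil granule, endothelial and cell cycle lists lie left of it in all 3.

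Most granulocyte genes overlapped between arms and varied widely among tumours. S100a8, a neutrophil alarmin, had 3943, 1922, 2932, 233 and 223 scaled counts in TP-0903+Gemcitabine tumours and 3490, 1148, 636 and 608 in Gemcitabine tumours. The same 3 TP-0903+Gemcitabine tumours were high as for the lymph node markers, and the log2 fold was 0.33 ± 0.87. Mpo, the myeloperoxidase of granulocyte precursors, had 247, 57.6, 79.0, 11.5 and 14.4 in TP-0903+Gemcitabine and 945, 141, 13 and 26.0 in Gemcitabine. Its log2 fold was -1.77 ± 1.07 (edgeR adjusted p = 0.730), 2.06 within the shared cartridge and 0.48 without Gemcitabine replicate 1. Elane, neutrophil elastase, gave -1.49 ± 0.96 in the same test, 1.87 within the shared cartridge and 0.31 without that tumour. Neutrophil granule and alarmin genes as a list had 5 of 11 folds above 0 and a median of -0.10, which was 1.47 within the shared cartridge and 0.48 without Gemcitabine replicate 1. Of the 11, only Ltf, the iron-binding granule protein lactoferrin, did not overlap between arms, at 23.6 ± 8.25 in TP-0903+Gemcitabine and 11.2 ± 3.41 in Gemcitabine (log2 fold 1.09 ± 0.43, edgeR adjusted p = 0.537). It exceeded background in 2 of 5 and 0 of 4 tumours. The direction of Mpo, Elane and the list's median rests on Gemcitabine replicate 1. The cartridge cannot be told apart from Gemcitabine replicates 1 and 2, which were on the other one.

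Tissue, stromal and tumour genes ranged from high counts, as for Col1a1, to low ones, such as Jam3 at 19.8 in Gemcitabine replicate 4. Of 24 tested matrix and mesenchymal genes, 18 had a fold above 0 with a median of 0.11, and Col1a1, the main collagen of tumour stroma, had 2117, 7593, 2383, 1855 and 3281 in TP-0903+Gemcitabine and 2222, 3637, 3996 and 2353 in Gemcitabine. Only TP-0903+Gemcitabine replicate 2 lay outside the Gemcitabine range by a wide margin, and the log2 fold was 0.17 ± 0.69. Vim, a mesenchymal filament protein, had a log2 fold of 0.16 ± 0.43. Endothelial genes had 13 of 20 folds above 0 and a median of 0.11. Epithelial and tumour cell genes had 7 of 19 above 0 and a median of -0.05, the list that held Erbb2 and Dmbt1.

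Cell cycle and p53 genes had 7 of 16 folds above 0 and a median of -0.03. The cell cycle inhibitor Cdkn1a had 243, 278, 448, 318 and 295 in TP-0903+Gemcitabine and 205, 234, 237 and 229 in Gemcitabine. The arms did not overlap, and the log2 fold was 0.48 ± 0.39 (edgeR adjusted p = 0.774), or -0.24 under positive-control scaling. The DNA damage kinase Atm had 142, 121, 67.3, 75.0 and 93.3 in TP-0903+Gemcitabine and 143, 134, 129 and 149 in Gemcitabine (log2 fold -0.48 ± 0.24, edgeR adjusted p = 0.636).

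Among lists with at least 3 tested genes, liver genes had the highest median, 1.05, with 16 of 18 folds above 0, and TP-0903+Gemcitabine replicate 3 carried most of it. Hamp, the iron hormone hepcidin, had 31.1, 108, 1015, 75.0 and 17.5 in TP-0903+Gemcitabine and 15.1, 43.7, 31.1 and 33.5 in Gemcitabine. Its log2 fold was 3.00 ± 1.61 (edgeR adjusted p = 0.708), and 0.90 without that tumour. Without it the median of the liver list was 0.34, against 0.16 for all genes. Complement genes, many of them made in liver, had 28 of 33 folds above 0 and a median of 0.53, or 0.21 without that tumour. Properdin, encoded by Cfp and made by leukocytes, had 215, 361, 205, 165 and 172 in TP-0903+Gemcitabine and 152, 142, 157 and 106 in Gemcitabine without overlap (log2 fold 0.68 ± 0.35, edgeR adjusted p = 0.678), and 0.71 without it. The chemokine gene Cxcl1, at 358 in that tumour and 22.5 to 51.1 in the rest of its arm, had a log2 fold of 1.75 ± 0.83 with it and 0.25 without it.

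**Figure D4:**
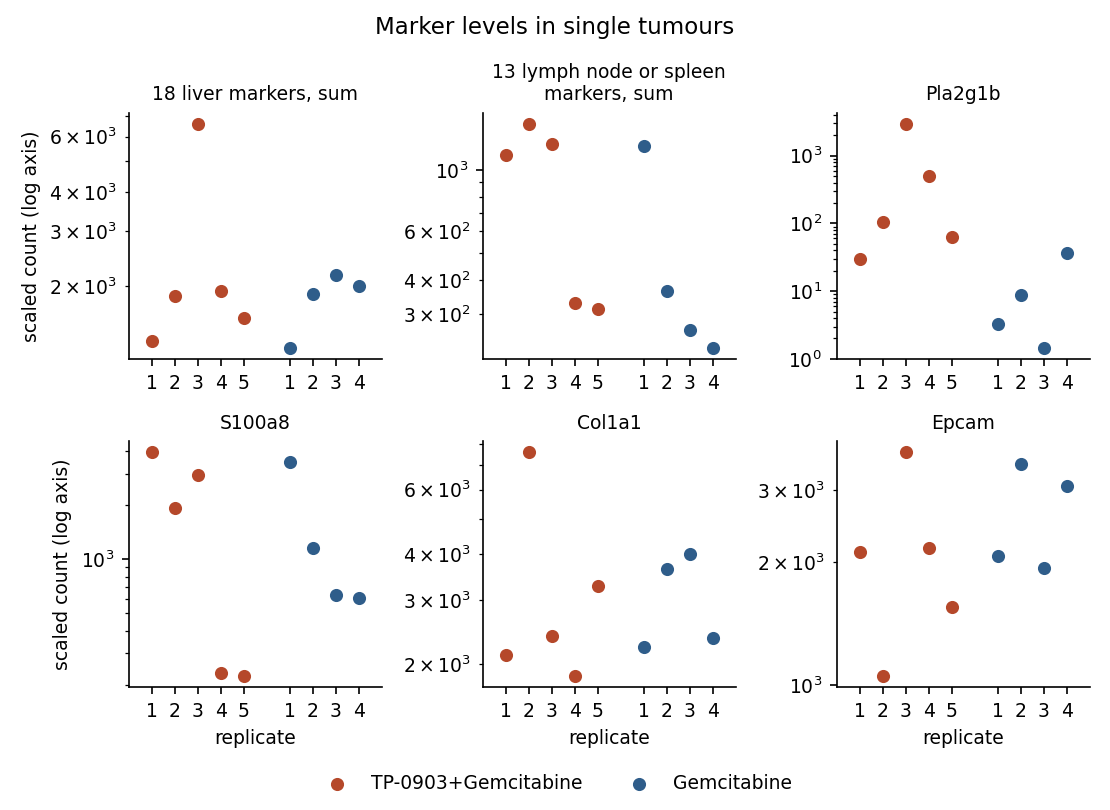
Scaled counts in single tumours on log axes, TP-0903+Gemcitabine replicates 1 to 5 on the left and Gemcitabine replicates 1 to 4 on the right. The liver sum is high in TP-0903+Gemcitabine replicate 3 (6581), and the lymph node sum and S100a8 are high in TP-0903+Gemcitabine replicates 1 to 3 and Gemcitabine replicate 1.

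The same inhibitor was also added to gemcitabine with anti-PD1, an antibody that blocks PD1, in arms that share no tumour with these 2. There the comparison was 5 TP-0903+Gemcitabine+anti-PD1 tumours against 4 Gemcitabine+anti-PD1 tumours. The test of the difference between both effects called 1 of 683 genes (0.146%), Pla2g1b. It had 43.6, 33.0, 59.7, 40.9 and 26.4 scaled counts in TP-0903+Gemcitabine+anti-PD1 tumours, against 8.33, 7.21, 205 and 2512 in Gemcitabine+anti-PD1 tumours. High values thus fell in the TP-0903 arm without the antibody and in the arm lacking TP-0903 with it. Gemcitabine+anti-PD1 replicates 1 and 2, both at background, lay below every TP-0903+Gemcitabine+anti-PD1 tumour. The effects were 5.77 ± 1.41 without and -4.08 ± 1.20 with anti-PD1, a log2 difference of 9.85 ± 1.86 (edgeR adjusted p = 0.00603). No tumour of these anti-PD1 arms was left out of the test in any alternative. How far the call rests on Gemcitabine+anti-PD1 replicates 3 and 4 was thus not tested. The log2 difference was 9.28 with the cartridge as a block, 10.98 with background subtracted, and 7.51 without TP-0903+Gemcitabine replicate 3 and Gemcitabine replicate 1, with edgeR adjusted p-values of 0.25, 0.119 and 0.120.

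The genes that were lower with TP-0903 on gemcitabine were not called as different in that test. With anti-PD1 the log2 fold of Jun was -0.41 ± 0.26 and of Erbb2 0.06 ± 0.34, with adjusted p-values of the difference of 0.815 and 0.677 by edgeR. For Aire it was 0.04 ± 0.28 (edgeR adjusted p of the difference = 0.383), and for Cd3g, a T cell receptor chain, -1.09 ± 0.44 against 1.16 ± 0.43 without the antibody (0.211). The median of all genes there was -0.15, against 0.20 without the antibody.

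**Figure D5:**
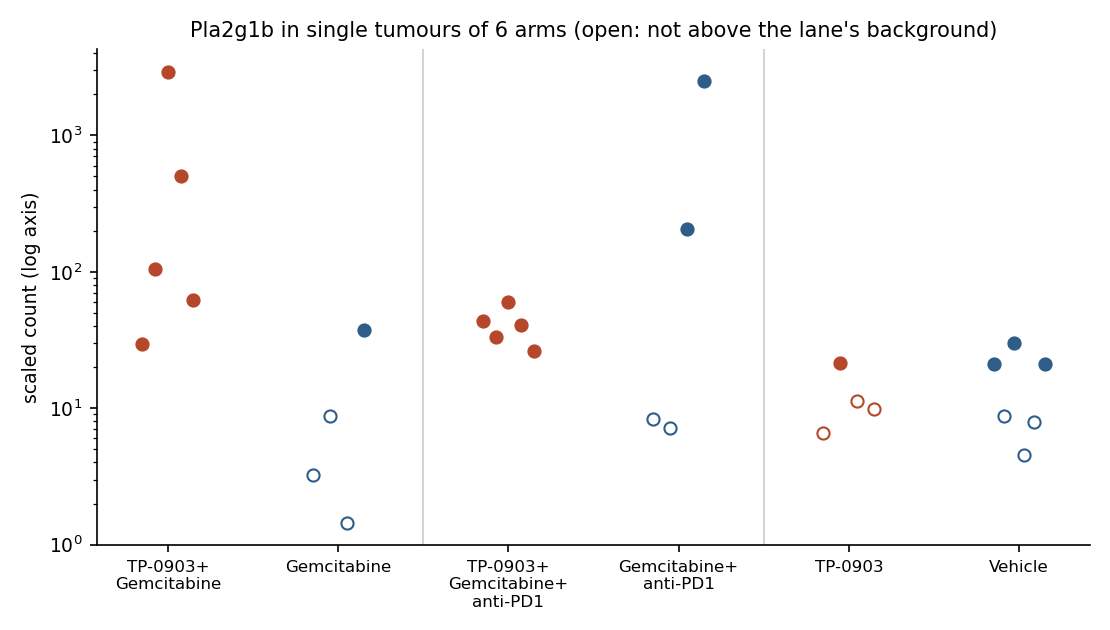
Pla2g1b scaled counts on a log axis, with 1 point for each tumour of 6 arms, and open points for tumours not above their lane's background threshold. The highest values are 2923 in TP-0903+Gemcitabine and 2512 in Gemcitabine+anti-PD1.

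Without gemcitabine, TP-0903 was compared with Vehicle in 4 and 6 tumours. The difference between the effect on gemcitabine and that effect was called for 3 of 683 genes (0.439%): the complement genes C9 and C8g, made in liver, and Egfr, the epidermal growth factor receptor gene. Egfr had 104, 155, 183, 90.7 and 124 scaled counts in TP-0903+Gemcitabine and 123, 197, 129 and 152 in Gemcitabine. In TP-0903 tumours without gemcitabine it had 123, 169, 2511 and 159, against 92.2 to 139 in the 6 Vehicle tumours. The log2 differences were -6.15 for C9, -5.62 for C8g and -2.90 for Egfr, each with an edgeR adjusted p of 0.0487. Leaving out TP-0903 replicate 3, which held those high values, and Vehicle replicate 3 gave -0.18, 0.10 and -0.59 with 0 genes called. Leaving out any one of 8 of the 9 TP-0903+Gemcitabine and Gemcitabine tumours gave 0 calls with folds of about the same size, from -6.31 to -5.85 for C9 and from -2.98 to -2.74 for Egfr. Leaving out TP-0903+Gemcitabine replicate 3 gave 7 calls. With background subtracted the adjusted p by edgeR was 0.114 for C9 and C8g and 0.0907 for Egfr, and with no filter on low counts it was 0.0518 for each. Jun had a log2 fold of -0.42 ± 0.25 with TP-0903 alone, Ctsl 0.72 ± 0.32 and F13a1 0.41 ± 0.57, and none of these was called as different from the effect on gemcitabine.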

How the data were processed

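The values the authors deposited were whole-number counts of 770 genes. The series' design text speaks of normalization to positive controls and housekeeping genes, but 27720 of 27720 deposited values equalled the raw counts in the authors' lane report. That report, per the file headers, also holds the control probes and each lane's cartridge. Gene symbols were taken from it. RefSeq (GRCm38.p6) held 746 of the 770 probe accessions, 9 of them under another symbol. Groups came from the treatment labels, and replicates were numbered in accession order.

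A gene was tested if it exceeded the background threshold (mean of the lane's negative controls plus 2 SD) in at least 4 of 36 lanes. Tests were two-sided edgeR quasi-likelihood tests (edgeR 4.0.16, R 4.3.3, robust fit), with all 8 arms in 1 model and housekeeping geometric means as library sizes. Benjamini-Hochberg adjustment ran over the 683 genes of each comparison, and an adjusted p under 0.05 was called. The biological coefficient of variation was 0.477. Errors are SE for folds and SD for means. The script was tested on simulated counts. Alternatives used limma 3.58.1 on log2 of the scaled count plus 1, DESeq2 1.42.0, other scalings and filters, cartridges and left-out tumours.

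The tumours, the 27 gene lists (606 members, 488 on the panel) and the naming rule were chosen with earlier results of these data known. The rule took all called genes, the 12 smallest p-values in each direction, the 3 smallest in each gene group list, every tested gene of other-tissue lists and a fixed list of immune, stromal and tumour genes, 120 genes in all, leaving out a few genes that are not reported here. F13a1, Ccl6, Creb1, Tlr4, Cdkn1a, Ccl3, Tnfsf4 and Cd200r1 fell outside it and were chosen after their values were seen. The lane identifiers of Gemcitabine replicates 3 and 4 carried a suffix that no source explains.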

Additional observations from a re-analysis of the deposited data

Results flagged for a closer look

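Single tumours that lay far from the other tumours of their arm were looked for among the 120 named genes and 10 lane measures, by the gap to the nearest tumour over the arm's range. Of 260 pairs of an arm with a gene or lane measure, 42 stood out, all of them genes. The cut-offs give about 5% of pairs by chance only for independent, normally distributed values. Scaled counts of related genes in the same tumours are not independent, so the number of pairs was not tested against chance. TP-0903+Gemcitabine replicate 3 was the high tumour in 22 of the 42. Among genes made mainly in liver it had 1442 scaled counts of Ambp, 1782 of Cfi, 1015 of Hamp, 424 of H2-Q10, 316 of Tdo2, 170 of Saa1 and 104 of F12. Among complement genes it had 117 of C8b, 84.8 of Masp1, 55.6 of Masp2, 52.7 of C8g and 38.0 of C8a. Among inflammatory and immune genes it had 2695 of Lcn2, 503 of Cxcl13, 358 of Cxcl1, 294 of Marco, 224 of Cxcl2, 58.5 of Arg2, 42.4 of Il13, 38.0 of H2-Q2 and 21.9 of H2-Q1. Its Pla2g1b count was 2923.

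TP-0903+Gemcitabine replicate 2 was high for Col1a1 at 7593, Cfp at 361, Pdgfrb at 134 and Tnfrsf14 at 98.9 scaled counts, and replicate 1 of that arm for Mpo at 247. Gemcitabine replicate 1 was high for Mpo at 945, Ms4a1 at 243, Ccnd3 at 210, Marco at 113, Cxcl13 at 82.9, Ltb at 74.3 and Cxcr5 at 42.0, and low for Cfi at 785. Gemcitabine replicate 2 was high for Csf3 at 36.2, Klra5 at 33.7, C8b at 28.7 and C8g at 23.7, all near background. Gemcitabine replicate 3 was high for Pdgfrb at 55.6 and low for Foxp3 at 5.78, and Gemcitabine replicate 4 was low for Jam3 at 19.8.

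In the tests of a difference between effects of TP-0903, Pla2g1b stood out against the effect with anti-PD1, by a log2 difference of 9.85. C9, C8g and Egfr stood out against the effect without gemcitabine, by -6.15, -5.62 and -2.90. No explanation of these values was tested.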

How the results depend on the processing

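The call of 0 genes for TP-0903+Gemcitabine against Gemcitabine became 1 with DESeq2, and 0 to 2 when single tumours of the 2 arms were left out: Aire and Pla2g1b without TP-0903+Gemcitabine replicate 1, and Aire without replicate 5. Against the effect with anti-PD1, the 1 call became 0 with the cartridge as a block, 0 without both tumours that stood apart, 0 with background subtracted, and 0 among the 426 genes above background in all 9 tumours, which leave out Pla2g1b. Against the effect without gemcitabine, the 3 calls became 10 under positive-control scaling, 0 without Vehicle replicate 3 and TP-0903 replicate 3, 0 with the cartridge as a block, 0 with background subtracted, 0 with no filter on low counts, 0 among those 426 genes, which leave out C9 and C8g, 5 without both tumours that stood apart, and 0 to 7 when single tumours were left out.

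Under positive-control scaling 19 named genes turned below 0: Cd9 (-0.34), Csf3 (-0.17), Ctsl (-0.0071), Fcer2a (-0.23), H2-Ob (-0.16), Ifna1 (-0.19), Ifna4 (-0.31), Il13 (-0.14), Il2ra (-0.19), Jam3 (-0.27), Masp1 (-0.20), Ms4a2 (-0.054), Msr1 (-0.10), Pdcd1 (-0.070), Pdgfrb (-0.23), Snai1 (-0.20), Tgfb2 (-0.33), Tnf (-0.057) and Tpsab1 (-0.056). With background subtracted Ifna4 was -0.022. With the cartridge as a block Mpo was 2.06, Elane 1.87 and Tnfrsf14 0.22, and within the shared cartridge 2.06, 1.87 and 0.22. Of the 8 arms only Gemcitabine had lanes on both of its cartridges, so both settings give nearly the same folds by design. Neither can tell the cartridge apart from Gemcitabine replicates 1 and 2, the tumours on the other cartridge. Without both tumours that stood apart Mpo was 0.49, Elane 0.060, Csf3 -0.078, Cxcl2 -0.27 and Masp1 -0.15. Leaving out single tumours gave -2.81 to 0.48 for Mpo, -2.09 to 0.31 for Elane and -0.066 to 1.22 for Cxcl2. These were the reversals among folds of at least 1 SE, and their cause was not tested. Multiplying positive-control and housekeeping factors equals housekeeping scaling by construction. Removing both tumours that stood apart, and leaving out tumours, subtracting background and changing the filter in the tests of difference, were chosen after seeing the data. No paired analysis was possible because the labels give no replicate numbers. Depth limits genes near background most.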
